A study of Mus musculus with 4 samples.

Results

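Galectins are proteins that bind sugar chains ending in galactose on glycoproteins and glycolipids. The group described here holds 6 genes chosen by name, Lgals1, Lgals3, Lgals4, Lgals8, Lgals9 and Lgals3bp, of 23284 gene symbols in the deposited tables. All 6 were found, each with 1 entry, so the mean FPKM that would have decided between repeated entries chose no row. The names were put together with earlier results of these libraries known, so the differences between the populations are given as a description, and nothing is rested on them.

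Polyadenylated RNA was measured in 4 libraries from mouse CD4 T cells, the helper lineage. CD4 T cells from BALB/c spleens were grown under Th1 conditions, which favour interferon-gamma producers, with interleukin-2 at 15 ng/ml and interleukin-12 at 10 ng/ml, for 4 days by one label and 5 days by another. A flow sorter then split the culture into a CCR7loCD137hi population (2 libraries) and a CCR7hiCD137lo population (2 libraries). CCR7 is a lymph node homing receptor and CD137, encoded by Tnfrsf9, a costimulatory receptor of activated T cells. Both populations thus share strain, culture and cytokines, and the labels name no further treatment or allele. The labels do not say whether replicates 1 and 2 came from separate mice or cultures, so the p-values describe only how far these samples scatter, and that scatter may be technical.

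Expression is in FPKM, fragments scaled to transcript length and library size, as the authors deposited it. Relative to CCR7hiCD137lo replicate 1, the depth estimated from low values was 0.565 and 0.306 in CCR7loCD137hi replicates 1 and 2 and 0.630 in CCR7hiCD137lo replicate 2. The sort genes followed the labels in every library, with Tnfrsf9 at 158.2 and 183.8 FPKM in CCR7loCD137hi and at 0.961 and 6.25 FPKM in CCR7hiCD137lo. Ccr7 stood at 39.6 and 38.2 FPKM in CCR7loCD137hi, against 93.4 and 118.4 FPKM in CCR7hiCD137lo. The 8 CD4 T cell genes summed to 1414 and 1635 FPKM in CCR7loCD137hi and to 1434 and 1574 FPKM in CCR7hiCD137lo.

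Galectins lack a signal peptide and leave the cell by an unconventional route, and they act both inside cells and on the cell surface, where they cross-link glycoproteins into lattices. Galectin-1 (Lgals1) is made by activated and regulatory T cells and can dampen or kill activated T cells in culture. Galectin-3 (Lgals3), long used as the macrophage antigen Mac-2, has a flexible tail through which it oligomerises. Galectin-4, galectin-8 and galectin-9 each carry a pair of sugar-binding domains in 1 chain. Galectin-9 binds the checkpoint receptor TIM-3, galectin-8 marks damaged endosomes, and galectin-4 is best known from the gut epithelium. Lgals3bp is not a galectin but encodes a secreted glycoprotein that binds galectin-3.

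The upstream sequences of the 3 genes below are shown because these were members whose levels stood apart between the populations, Lgals3 higher and Lgals9 and Lgals3bp lower in CCR7loCD137hi. They are from RefSeq (GRCm38.p6) and run 5′ to 3′ along the gene's own strand, ending before the first exon base that RefSeq or GENCODE annotates. The promoter table held 5 of the 6 members, without Lgals1. Capitals mark the match to a motif described below.
Lgals3, chr14:47373610-47373812, plus strand: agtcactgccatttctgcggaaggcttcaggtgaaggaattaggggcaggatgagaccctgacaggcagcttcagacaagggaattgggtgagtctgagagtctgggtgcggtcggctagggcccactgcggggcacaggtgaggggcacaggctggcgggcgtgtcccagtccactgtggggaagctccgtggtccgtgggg
Lgals9, chr11:78984947-78985174, minus strand: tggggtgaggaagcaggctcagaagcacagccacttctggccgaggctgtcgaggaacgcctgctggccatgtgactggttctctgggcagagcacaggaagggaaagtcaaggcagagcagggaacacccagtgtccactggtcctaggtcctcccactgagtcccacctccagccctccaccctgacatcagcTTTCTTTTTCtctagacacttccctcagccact
Lgals3bp, chr11:118402093-118402209, minus strand: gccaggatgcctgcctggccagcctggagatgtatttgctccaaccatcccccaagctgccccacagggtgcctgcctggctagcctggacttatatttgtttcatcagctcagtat

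A search of both strands was made over the full window of each promoter, 250 bases before to 50 after the RefSeq start, for 5 motifs, and no match overlapped another. The core of the interferon-stimulated response element, searched as a pair of GAAA copies with 2 free bases between them, was present in 1 of 5 member promoters, that of Lgals9, and in 3.43% of all 32817 promoter windows. Lgals9 held it at 2 places, TTTCTTTTTC starting 55 bases upstream of the start and TTTCTGTTTC starting at base 16 of the transcript. The GC box GGGCGG was present in 2 of 5 member promoters, those of Lgals3 and Lgals4, and in 35.6% of all windows. In Lgals3 the matches began 7 bases before the start and at base 5 of the transcript, outside the stretch printed above. The gamma-activated sequence TTCNNNGAA, the TATA box TATAAA and the AP-1 site TGANTCA were found in 0 of 5 member promoters and in 8.29%, 13.6% and 7.81% of all windows. The Lgals3 window was 67.0% G or C, that of Lgals9 58.0% and that of Lgals3bp 55.0%, against a median of 52.7% over all windows.

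Galectin-1 transcripts were the most abundant of the family in all 4 libraries and were higher in CCR7loCD137hi. Lgals1 (mm10 chromosome 15, 78926725 to 78930465, plus strand, protein-coding) stood at 909.7 and 866.9 FPKM in CCR7loCD137hi and at 294.1 and 510.0 FPKM in CCR7hiCD137lo. The populations did not overlap, and the CCR7hiCD137lo libraries were the ones that differed from each other. The means were 888.3 ± 30.3 and 402.1 ± 152.7 FPKM (SD, n = 2 each), a 2.21-fold difference. On the log2(FPKM + 1) scale, on which all fold changes here are given as CCR7loCD137hi minus CCR7hiCD137lo, the difference was 1.19 (SE 0.283, limma adjusted p = 0.462 over all genes). It was 1.63 between the libraries numbered 1 and 0.76 between those numbered 2. Within each library Lgals1 exceeded 99.4% and 99.3% of the 10496 tested genes in CCR7loCD137hi and 98.0% and 98.9% of them in CCR7hiCD137lo. Pseudogene copies of Lgals1 exist, and the sources used here do not give how reads that fit several places were handled, which leaves its level uncertain to that extent. These are bulk samples, in which fewer cells of a type and less RNA per cell cannot be told apart.

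Lgals3 differed the most of the 6 genes. It lies on chromosome 14 (47373860 to 47386167, plus strand, protein-coding) and stood at 82.9 and 82.2 FPKM in CCR7loCD137hi, against 5.64 and 14.2 FPKM in CCR7hiCD137lo. The CCR7loCD137hi libraries were nearly equal, and the groups were far from overlapping. The means were 82.6 ± 0.481 and 9.90 ± 6.03 FPKM (SD, n = 2 each), 8.34-fold apart. The log2 difference was 3.06 (SE 0.412, limma adjusted p = 0.259), with 3.66 between the libraries numbered 1 and 2.46 between those numbered 2. Of all tested genes 99.7% had a lower log2 difference. Lgals3 exceeded 91.3% and 91.9% of tested genes in CCR7loCD137hi, and 30.6% and 54.3% of them in CCR7hiCD137lo. Without CCR7hiCD137lo replicate 2 the log2 difference was 3.65, and without CCR7hiCD137lo replicate 1 it was 2.46. Without CCR7loCD137hi replicates 1 and 2 in turn it was 3.05 and 3.06. Each such fit leaves 1 library in a group and assumes that it varies as the other group does.

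Galectin-9 transcripts were lower in CCR7loCD137hi, with very little spread. Lgals9 (chromosome 11, 78962979 to 78984924, minus strand, protein-coding) stood at 40.0 and 40.9 FPKM in CCR7loCD137hi and at 62.0 and 62.6 FPKM in CCR7hiCD137lo. Replicates of each population were within 1 FPKM of each other and the groups did not overlap. The means were 40.4 ± 0.586 and 62.3 ± 0.439 FPKM (SD, n = 2 each), and the log2 difference was −0.61 (SE 0.113, limma adjusted p = 0.36). The difference was −0.62 between the libraries numbered 1 and −0.60 between those numbered 2.

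Lgals3bp was also lower in CCR7loCD137hi. This gene (chromosome 11, 118392752 to 118401931, minus strand, protein-coding) stood at 23.5 and 18.3 FPKM in CCR7loCD137hi, against 35.0 and 27.3 FPKM in CCR7hiCD137lo. The groups did not overlap, and in both populations replicate 2 was the lower library. The log2 difference was −0.55 (SE 0.2, limma adjusted p = 0.613), at −0.56 and −0.55 between libraries of the same number. Of all tested genes 1.67% had a lower log2 difference than Lgals9 and 2.17% a lower one than Lgals3bp.

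Lgals8 and Lgals4, the other members with paired sugar-binding domains, were low, with differences smaller than 1.5 times their SE. Lgals8 (chromosome 13, 12439415 to 12461738, minus strand, protein-coding) stood at 8.66 and 10.8 FPKM in CCR7loCD137hi and at 8.45 and 8.14 FPKM in CCR7hiCD137lo. The groups were separated by little, and they overlapped once the libraries were scaled to equal summed FPKM without short RNA genes. Its log2 difference was 0.20 (SE 0.163, limma adjusted p = 0.80), at 0.03 and 0.37 between the libraries numbered 1 and 2. It was 0.35 without CCR7loCD137hi replicate 1 and 0.06 without CCR7loCD137hi replicate 2. Its 3′ end overlaps that of Heatr1 on the other strand, and whether the counting used strand is not given in the sources used here. Lgals4 (chromosome 7, 28833794 to 28841703, plus strand, protein-coding) stood at 3.40 and 3.10 FPKM in CCR7loCD137hi and at 2.20 and 4.78 FPKM in CCR7hiCD137lo, and the groups overlapped (log2 difference −0.02, SE 0.327, limma adjusted p = 0.993). In the tables the entry of its near-identical copy Lgals6 (28834182 to 28841633) lies inside that of Lgals4, so reads can be split between them. Lgals6 was at 0.983 and 2.65 FPKM in CCR7loCD137hi and at 1.78 and 0.000419 FPKM in CCR7hiCD137lo. The sum of both entries was 4.38 and 5.76 FPKM in CCR7loCD137hi, against 3.99 and 4.78 FPKM in CCR7hiCD137lo, and its log2 difference was 0.17. The direction for Lgals4 therefore turned with the treatment of the copy.

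**Figure D1:**
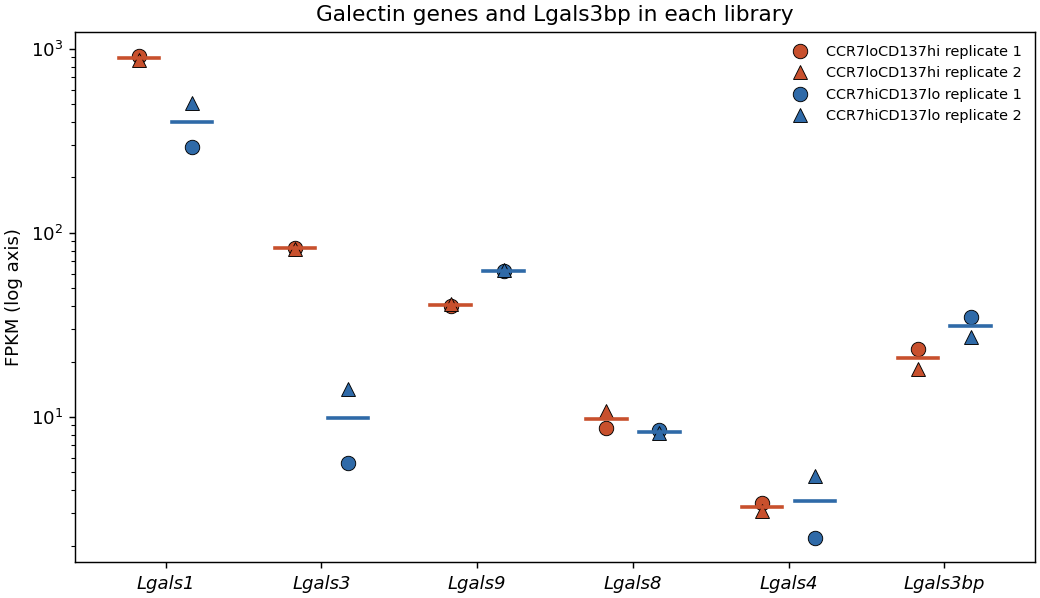
Level of each gene in each library, in FPKM on a log axis, with CCR7loCD137hi in orange left of CCR7hiCD137lo in blue; circles are replicate 1, triangles replicate 2 and bars the mean of 2 libraries. Lgals3 stands at 82.9 and 82.2 FPKM in CCR7loCD137hi and at 5.64 and 14.2 FPKM in CCR7hiCD137lo, while Lgals9 is higher in CCR7hiCD137lo.

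Because FPKM is a level per transcript length, the genes can also be ranked within a population. In CCR7loCD137hi the order was Lgals1, Lgals3, Lgals9, Lgals3bp, Lgals8 and Lgals4, with no overlap between neighbours. In CCR7hiCD137lo it was Lgals1, Lgals9, Lgals3bp, then Lgals3 and Lgals8, whose libraries overlapped, and Lgals4. Lgals3 stood at 2.07 and 2.01 times the level of Lgals9 in the CCR7loCD137hi libraries, and at 0.091 and 0.226 times in the CCR7hiCD137lo libraries. Lgals1 stood at 22.7 and 21.2 times the level of Lgals9 in CCR7loCD137hi, against 4.75 and 8.15 times in CCR7hiCD137lo. Such ratios within a library show unequal levels and do not depend on scaling between libraries.

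Summed over 11 galectin family genes, the FPKM was 1062 and 1029 in CCR7loCD137hi and 384.5 and 609.3 in CCR7hiCD137lo. Lgals1 made up 85.6% and 84.2% of the sum in CCR7loCD137hi, against 76.5% and 83.7% in CCR7hiCD137lo. Lgals3 contributed 7.80% and 7.99% in CCR7loCD137hi and 1.47% and 2.32% in CCR7hiCD137lo. The share of Lgals9 was 3.77% and 3.97% in CCR7loCD137hi and 16.1% and 10.3% in CCR7hiCD137lo. Lgals3 thus had the larger share in CCR7loCD137hi, and Lgals9 in CCR7hiCD137lo. A share also moves with the sum, most of which was Lgals1, and the mean level of Lgals9 itself was 1.54 times as high in CCR7hiCD137lo.

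**Figure D2:**
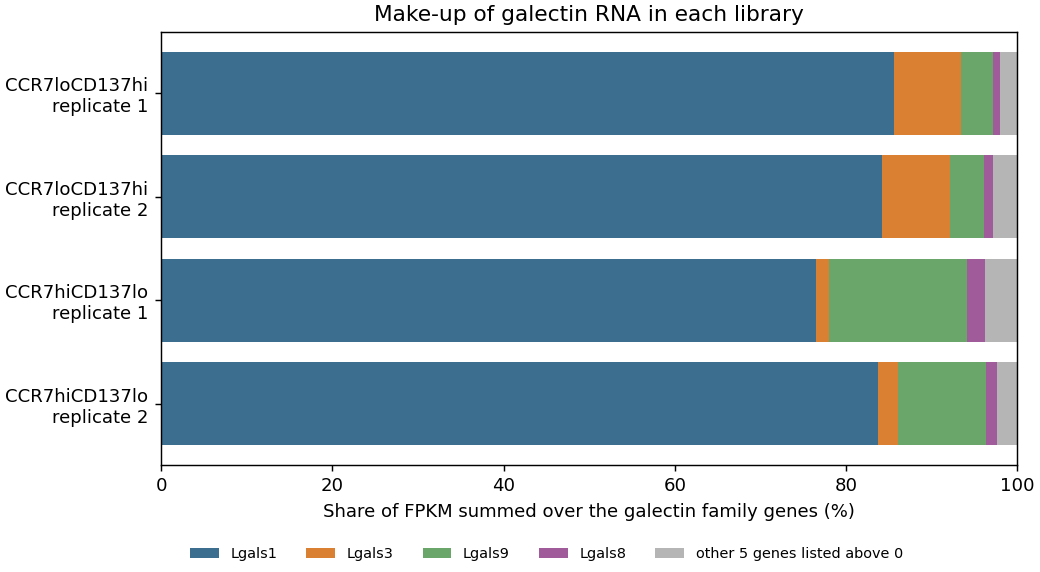
Share of FPKM summed over the galectin family genes in each library, in percent, with 1 bar a library and the 2 CCR7loCD137hi libraries above the 2 CCR7hiCD137lo libraries. The segment of Lgals3 is 7.80% and 7.99% wide in CCR7loCD137hi and 1.47% and 2.32% wide in CCR7hiCD137lo, and that of Lgals9 is wider in CCR7hiCD137lo.

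The family genes outside the 6 were at 14.1 FPKM or lower in every library. Lgals7, known from stratified epithelium, was at 10.0 and 14.1 FPKM in CCR7loCD137hi and at 4.56 and 2.93 FPKM in CCR7hiCD137lo (log2 difference 1.46, SE 0.261, limma adjusted p = 0.346). The groups did not overlap, though an antisense gene, Gm10648, spans the locus and its reads may be counted there. Grifin, a lens relative of the galectins, was at 2.56 and 3.31 FPKM in CCR7loCD137hi, against 1.16 and 1.38 FPKM in CCR7hiCD137lo. The galectin-like gene Lgalsl, listed under its older symbol 1110067D22Rik, was at 4.12 and 5.54 FPKM in CCR7loCD137hi and at 4.59 and 5.23 FPKM in CCR7hiCD137lo. Lgals2 and Lgals12 were listed at 0 in every library. There 3 fragments on a transcript of 1 kb would have given 0.261 and 0.482 FPKM in CCR7loCD137hi and 0.147 and 0.234 FPKM in CCR7hiCD137lo. These limits cover counting error only, and they are higher for a shorter transcript such as that of Lgals2 (592 nt).

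Over all 10496 genes tested limma called 6 (0.0572%), with 5 higher (0.0476%) and 1 lower (0.00953%) in CCR7loCD137hi. Of these calls 3 were short RNA genes, those with symbols starting with Mir, Snor or Rnu. All 6 galectin-related genes had a mean of at least 1 FPKM and were tested, and 0 of them were called in either direction. At an unadjusted p under 0.05 there were 2 higher, Lgals1 and Lgals3, and 2 lower, Lgals9 and Lgals3bp, against 4.64% and 3.49% of all genes in those directions and 8.13% in either. For 3 of the 6 the CCR7loCD137hi pair lay wholly above the CCR7hiCD137lo pair and for 2 wholly below, against 16.6% and 21.5% of all tested genes. The genes were chosen with this contrast known, so nothing is read from these counts. The median log2 difference was 0.09 over the 6 and −0.01 over all tested genes. The Lgals8 separation ended with the equal-sum scaling, and the other 4 separations were seen with all 3 scalings tried.

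**Figure D3:**
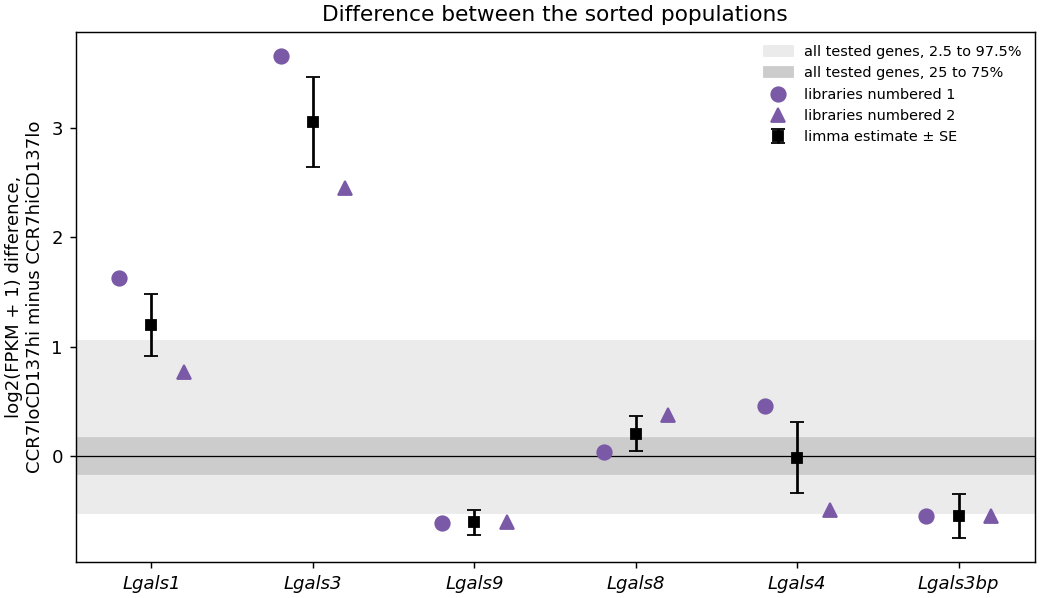
Difference in log2(FPKM + 1), CCR7loCD137hi minus CCR7hiCD137lo, for each gene; squares are limma estimates with SE, circles and triangles the differences between the libraries numbered 1 and 2, and the grey bands hold the middle 95% and 50% of all tested genes. Lgals3 at 3.06 and Lgals1 at 1.19 lie above the outer band, Lgals9 at −0.61 and Lgals3bp at −0.55 lie just below it, and Lgals8 and Lgals4 lie near 0.

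The difference within CCR7hiCD137lo bears on how well these levels are known. There, replicate 2 was above replicate 1 by 0.79 for Lgals1, by 1.19 for Lgals3 and by 0.85 for Lgals4 on the log2 scale. In CCR7loCD137hi the same differences were −0.07, −0.01 and −0.10. For Lgals8, Lgals9 and Lgals3bp the CCR7hiCD137lo differences were −0.05, 0.01 and −0.35. Both sort genes stood higher in CCR7hiCD137lo replicate 2, Tnfrsf9 by 1.89 and Ccr7 by 0.34. Whether the sort gate moved with the galectin levels of that library was not tested.

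Genes whose profile over the 4 libraries lay closest to each well-expressed member were found among 3675 genes with a mean of at least 20 FPKM, by Euclidean distance between mean-centred log2(FPKM + 1) values. For Lgals1 these were Trp53i11 (distance 0.0397), Eomes (0.192) and Samsn1 (0.194), against 1.37 for the median gene. Trp53i11 stood at 57.4 and 56.4 FPKM in CCR7loCD137hi and at 18.5 and 32.0 FPKM in CCR7hiCD137lo. For Lgals3 they were Mt1, a metallothionein gene (0.464), Zbtb32 (0.641) and Ifng, the interferon-gamma gene (0.97), against 3.2 for the median gene. Mt1 stood at 91.7 and 97.9 FPKM in CCR7loCD137hi, against 4.45 and 17.7 FPKM in CCR7hiCD137lo. For Lgals9 they were Rbl1, Wdr82 and Fyn, a Src-family kinase gene (0.0428, 0.0493 and 0.0668), against 0.668 for the median gene. For Lgals3bp they were Mapk14, the p38 kinase gene, Srsf1 and Erap1 (0.0642, 0.0844 and 0.1), against 0.678 for the median gene. With 4 libraries such likeness is a description, and many genes share a simple difference between the populations.

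Surface glycoproteins that galectins are known to bind were set beside the galectins. Of 18 listed partner genes 17 were tested and 0 were called by limma in either direction, where 0.0572% of all genes were. At an unadjusted p under 0.05 there were 4 higher and 1 lower, against 4.64% and 3.49% of all genes. The CCR7loCD137hi pair was wholly above for 7 of the 17 and wholly below for 3, against 16.6% and 21.5% of all genes. The sort gene Tnfrsf9, whose difference was set by the sort, is 1 of the 4 and 1 of the 7. The median log2 difference was 0.19. The most expressed were Thy1, a surface glycoprotein of T cells, the adhesion receptor gene Cd2, Ptprc (CD45) and Cd3e. Thy1 was at 538.4 ± 28.3 FPKM in CCR7loCD137hi and 470.2 ± 21.2 FPKM in CCR7hiCD137lo, and Ptprc at 211.4 ± 0.425 FPKM in CCR7loCD137hi and 235.1 ± 23.4 FPKM in CCR7hiCD137lo (SD, n = 2 each). Cd2 was at 369.2 ± 25.9 FPKM in CCR7loCD137hi and 306.5 ± 21.3 FPKM in CCR7hiCD137lo. Cd3e was at 200.6 ± 28.8 FPKM in CCR7loCD137hi and 206.9 ± 8.30 FPKM in CCR7hiCD137lo, and its libraries overlapped.

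By the naming rule the partner genes with the largest differences were the sort gene Tnfrsf9, whose product is known to bind galectin-9, and Ctla4, an inhibitory receptor gene. Ctla4 was at 138.7 and 70.0 FPKM in CCR7loCD137hi and at 37.5 and 23.5 FPKM in CCR7hiCD137lo (log2 difference 1.70, SE 0.405, limma adjusted p = 0.462). Named after its values were seen, the inhibitory receptor gene Lag3 was at 12.8 and 19.5 FPKM in CCR7loCD137hi, against 2.32 and 7.16 FPKM in CCR7hiCD137lo (log2 difference 1.69, limma adjusted p = 0.537). Havcr2, which encodes TIM-3, was at 1.33 and 0.939 FPKM in CCR7loCD137hi and its CCR7hiCD137lo entries were both 0, so it lay under the minimum for testing. Its ligand gene Lgals9 was lower in CCR7loCD137hi, at 40.0 and 40.9 FPKM against 62.0 and 62.6 FPKM. Tnfrsf25, also named after its values were seen, was the 1 partner gene lower at an unadjusted p under 0.05 in limma's test. It was at 16.7 and 12.7 FPKM in CCR7loCD137hi, against 21.2 and 23.2 FPKM in CCR7hiCD137lo (−0.57, limma adjusted p = 0.552). Pdcd1, named likewise, was at 6.10 ± 1.26 FPKM in CCR7loCD137hi and 4.89 ± 0.742 FPKM in CCR7hiCD137lo (SD, n = 2 each). Its libraries overlapped.

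Enzymes that build or cap the sugar chains read by galectins formed the next list. Branching N-acetylglucosaminyltransferases and galactosyltransferases create the sites, and sialyltransferases can mask them. Of 30 listed genes 24 were tested, 0 were called by limma (0.0572% of all genes), and an unadjusted p under 0.05 was reached by 6 in the higher direction and 3 in the lower, against 4.64% and 3.49% of all genes. The CCR7loCD137hi pair was wholly above for 9 and wholly below for 3, against 16.6% and 21.5% of all genes, and the median log2 difference was 0.12. St6gal1, whose product adds a sialic acid that blocks galectin-1, was at 44.8 and 84.0 FPKM in CCR7loCD137hi and at 46.3 and 50.1 FPKM in CCR7hiCD137lo, and the libraries overlapped. Mgat1, which starts complex N-glycans, was at 37.8 ± 1.06 FPKM in CCR7loCD137hi and 34.8 ± 3.21 FPKM in CCR7hiCD137lo (SD, n = 2 each). B4galt1, a galactosyltransferase gene, was at 35.7 ± 7.31 FPKM in CCR7loCD137hi and 35.0 ± 5.43 FPKM in CCR7hiCD137lo, and St3gal4 at 38.0 ± 7.97 FPKM in CCR7loCD137hi and 33.2 ± 4.90 FPKM in CCR7hiCD137lo.

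By the naming rule the enzyme genes with the largest log2 differences were St3gal1, which caps O-glycans with sialic acid, and Fut8, which adds core fucose. The rule took genes with a mean of at least 5 FPKM whose groups did not overlap. St3gal1 was at 6.25 and 9.50 FPKM in CCR7loCD137hi and at 2.80 and 4.83 FPKM in CCR7hiCD137lo (log2 difference 0.89, SE 0.307, limma adjusted p = 0.602). Fut8 was at 17.2 and 22.5 FPKM in CCR7loCD137hi, against 11.8 and 14.0 FPKM in CCR7hiCD137lo (0.58, SE 0.189, limma adjusted p = 0.572). Named after its values were seen, Gcnt1, whose product branches the O-glycans of CD43 and CD45, was at 4.13 and 4.73 FPKM in CCR7loCD137hi and at 1.34 and 1.67 FPKM in CCR7hiCD137lo (1.12, limma adjusted p = 0.346). The other genes higher at an unadjusted p under 0.05 in limma's test were Mgat4b, St3gal6 and B4galt5, named likewise (0.87, 0.75 and 0.41). Mgat4b was at 3.66 and 4.47 FPKM in CCR7loCD137hi and at 1.76 FPKM in both CCR7hiCD137lo libraries. Lower at an unadjusted p under 0.05 in limma's test, and also named after the values were seen, were Man1a, Man2a1 and B4galt4. Man1a was at 27.6 and 26.0 FPKM in CCR7loCD137hi and at 40.3 and 36.3 FPKM in CCR7hiCD137lo (−0.50). Man2a1 was at 10.9 FPKM in both CCR7loCD137hi libraries and at 15.3 and 15.1 FPKM in CCR7hiCD137lo (−0.45). B4galt4 was at 4.25 and 3.76 FPKM in CCR7loCD137hi and at 6.20 and 5.67 FPKM in CCR7hiCD137lo (−0.47).

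Intracellular partners, such as the ESCRT protein ALIX and the autophagy factors that respond to galectin-marked vesicles, made up a short list. Of 10 listed genes 9 were tested, with 0 called (0.0572% of all genes) and 0 at an unadjusted p under 0.05 in limma's test, where 8.13% of all genes lay, and a median log2 difference of 0.05. Chmp4b, an ESCRT subunit gene, was at 112.4 and 99.7 FPKM in CCR7loCD137hi and at 85.5 and 91.8 FPKM in CCR7hiCD137lo (0.25, SE 0.127). Pdcd6ip, which encodes ALIX, was at 42.8 ± 2.79 FPKM in CCR7loCD137hi and 41.5 ± 4.85 FPKM in CCR7hiCD137lo (SD, n = 2 each). Tax1bp1, an autophagy receptor gene, was at 82.9 ± 2.68 FPKM in CCR7loCD137hi and 93.4 ± 27.1 FPKM in CCR7hiCD137lo. Becn1, an autophagy initiation gene, was at 65.3 ± 1.17 FPKM in CCR7loCD137hi and 61.0 ± 0.865 FPKM in CCR7hiCD137lo. Gemin4, whose product is a nuclear partner of galectin-3, was at 9.53 and 6.22 FPKM in CCR7loCD137hi, against 10.5 and 10.0 FPKM in CCR7hiCD137lo. Calcoco2, the gene of a receptor for galectin-8 in human cells, was listed at 0 in every library.

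**Figure D4:**
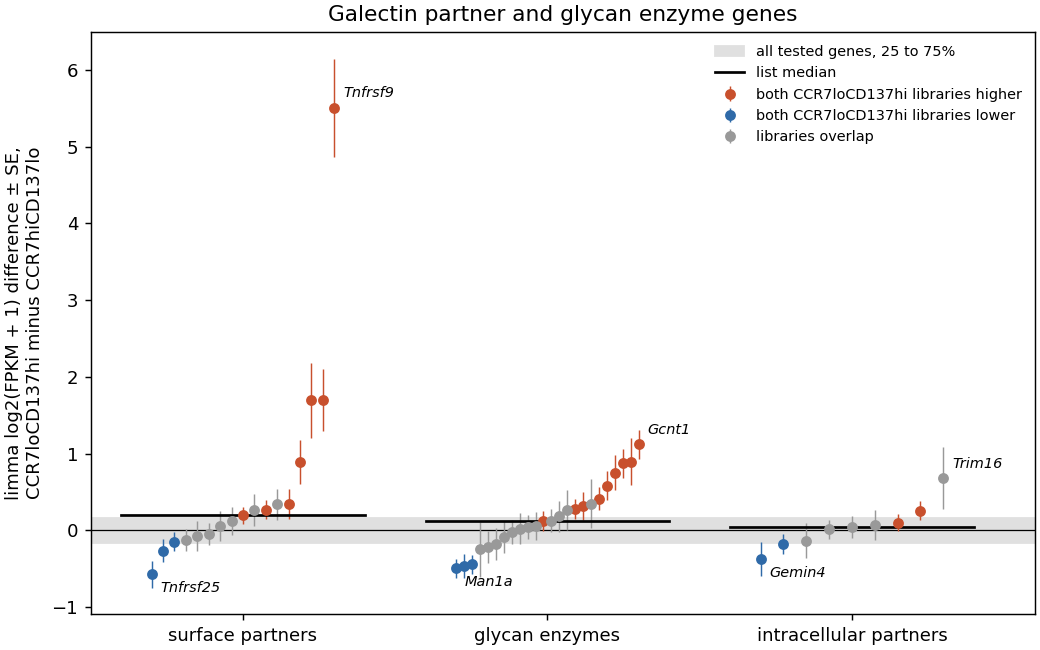
Limma difference in log2(FPKM + 1), CCR7loCD137hi minus CCR7hiCD137lo, with SE, for the 17 surface partner, 24 glycan enzyme and 9 intracellular partner genes tested, ordered by value in each list; black lines are list medians (0.19, 0.12 and 0.05). The sort gene Tnfrsf9 lies at 5.51, and no gene shown passed limma's test over all genes.

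Markers of other cells were looked at because macrophages and regulatory T cells are known sources of galectins. Of 15 myeloid and dendritic cell markers, 4 were at 0 in every library, among them Csf1r, and 12 were under 1 FPKM in every library. Lyz2 was at 0 and 0.185 FPKM in CCR7loCD137hi and at 0 in both CCR7hiCD137lo libraries. The list summed to 44.0 and 41.8 FPKM in CCR7loCD137hi and to 48.1 and 40.6 FPKM in CCR7hiCD137lo, of which the cathepsin gene Ctss, also made by lymphocytes, gave 35.3 and 34.3 FPKM in CCR7loCD137hi and 46.0 and 39.7 FPKM in CCR7hiCD137lo. Without Ctss the sums were 8.68 and 7.47 FPKM in CCR7loCD137hi and 2.17 and 0.905 FPKM in CCR7hiCD137lo, with Fcer1g at 5.67 and 3.48 FPKM in CCR7loCD137hi against 0.107 and 0 FPKM in CCR7hiCD137lo.

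The 11 Treg genes summed to 1157 and 800.3 FPKM in CCR7loCD137hi and to 783.6 and 804.0 FPKM in CCR7hiCD137lo, and the CCR7loCD137hi libraries were above the others for 7 of 11, against 16.6% of all tested genes. The most expressed, Il2ra and Tnfrsf18, were at 548.8 and 345.5 FPKM and at 264.3 and 270.3 FPKM in CCR7loCD137hi. In CCR7hiCD137lo they were at 537.9 and 518.4 FPKM and at 142.3 and 183.0 FPKM. Foxp3, the Treg lineage factor, was at 47.9 and 11.0 FPKM in CCR7loCD137hi and at 0.853 and 0.181 FPKM in CCR7hiCD137lo.

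The 8 CD8 T and NK cell markers summed to 74.0 and 55.2 FPKM in CCR7loCD137hi and to 17.1 and 33.3 FPKM in CCR7hiCD137lo, most of it from Eomes and Klrk1, and none of these 8 was at 0 throughout. Eomes alone was at 26.5 and 28.5 FPKM in CCR7loCD137hi and at 9.42 and 17.2 FPKM in CCR7hiCD137lo. A sum led by so few genes does not give the content of CD8 T or NK cells. Cd8a was at 3.68 and 0.218 FPKM in CCR7loCD137hi and at 0 and 0.0265 FPKM in CCR7hiCD137lo. Cd8b1, the more expressed CD8 gene of the list, was at 8.48 and 3.78 FPKM in CCR7loCD137hi, against 2.63 and 4.56 FPKM in CCR7hiCD137lo. Its libraries overlapped. The 8 B cell markers summed to 5.03 and 0.529 FPKM in CCR7loCD137hi and to 0.125 and 0.274 FPKM in CCR7hiCD137lo, with Cd79b and Cd79a the most expressed. The 9 erythroid and platelet markers, of which 4 were at 0 in every library, and which were led by Hba-a1 and Itga2b, summed to 1.27 and 2.29 FPKM in CCR7loCD137hi and to 0.306 and 0.536 FPKM in CCR7hiCD137lo. The part of these cell types and of Treg cells in the galectin levels was not tested.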

How the data were processed

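RNA of 4 sorted T cell libraries was analysed from FPKM values that the authors deposited as 1 gene table per library. Per the submitters' processing notes, the tools named are TopHat 1.3.2, Bowtie 0.12.8 and Cufflinks 2.0.2, without their roles or order, and the build is mm10. Per the labels' protocols, TRIzol RNA went into a TruSeq Stranded mRNA kit. The sources used here do not give the annotation, the rule for multiple mapping, the use of strand or the scaling between libraries. Groups and replicate numbers came from sample titles. Of 23746 entries, the one with the highest mean was kept for each of 240 repeated symbols. Start positions are printed 1-based.

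Genes with a mean of at least 1 FPKM entered limma 3.58.1 (R 4.3.3) as log2(FPKM + 1), as a two-sided test with a trended variance. Benjamini-Hochberg adjustment ran over 10496 genes, and calls needed an adjusted p under 0.05. There were 2 residual and 2.54 prior degrees of freedom. With 2 libraries a group, the smallest p of an exact permutation test is 0.333. The fit was tested on simulated data. Depth was estimated from low values, since 75.5%, 74.0% and 74.6% of low-gene ratios (under 0.3 FPKM) to CCR7hiCD137lo replicate 1 (CCR7loCD137hi replicates 1 and 2 and CCR7hiCD137lo replicate 2) were ratios of whole reads within 0.002 in natural log. Absolute depth assumed fragments of 200 nt and is approximate. By it the galectin levels rested on about 1164 and 625 fragments of Lgals3 in CCR7loCD137hi and 140 and 221 in CCR7hiCD137lo, and on 23 to 73 of Lgals4. Tables and plots were made in Python 3.11.15 (matplotlib 3.10.9, numpy 2.4.6, pandas 2.3.3).

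The members, the lists of partners, enzymes and markers, and the rule for naming were chosen with earlier results of these data known. That rule took all 6 members, other family genes, and from each partner or enzyme list the 4 most expressed tested genes and the 2 with the largest difference among those of at least 5 FPKM whose groups did not overlap. For likeness it took the 3 nearest genes, and for marker lists the sums and the 2 most expressed genes. Others are named as examples chosen after their values were seen. They are Gcnt1, Mgat4b, St3gal6, B4galt5, Man1a, Man2a1, B4galt4, Lag3, Tnfrsf25, Pdcd1, Havcr2, Calcoco2, Foxp3, Cd8a, Cd8b1, Lyz2, Csf1r and Fcer1g. Alternatives were another pseudocount, filter, scaling or variance model, each library left out, and the replicate number as a block.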

Additional observations from a re-analysis of the deposited data

How the results depend on the processing

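The log2 differences of Lgals1 (0.80 to 1.59), Lgals3 (2.46 to 3.65), Lgals8 (0.06 to 0.35), Lgals9 (−0.67 to −0.60) and Lgals3bp (−0.73 to −0.38) kept their direction in all 11 alternatives tried. With 1 exception none passed limma's test, with adjusted p from 0.0825 to 1 for Lgals9 and from 0.12 to 0.983 for Lgals1. The exception was Lgals3 without CCR7hiCD137lo replicate 2 (3.65, adjusted p = 0.0245), and over its alternatives the adjusted p ran from 0.0245 to 0.532. Leaving out 1 library moved Lgals1 between 0.80 (without CCR7hiCD137lo replicate 1) and 1.59 (without replicate 2). Lgals4 ran from −0.44 to 0.41 over the left-out libraries, turning to 0.03 without CCR7loCD137hi replicate 2 and to 0.41 without CCR7hiCD137lo replicate 2, and it was 0.17 with the Lgals6 entry added, an alternative chosen after seeing the data. It could not be fitted at a minimum mean of 5 FPKM, which it does not reach. Calls over all genes, 6 in the reported fit, numbered 1 with no filter on low values, 2 with quantile normalization, 2 without a variance trend, 12 to 30 with 1 library left out (12 without CCR7loCD137hi replicate 1, 30 without its replicate 2, 17 and 23 without CCR7hiCD137lo replicates 1 and 2) and 42 with the replicate block. Surface partner calls went to 1 with either CCR7hiCD137lo library left out (Tnfrsf9, a sort gene) and to 1 with the replicate block (Ctla4, adjusted p = 0.0471), from 0 to 1 over the left-out libraries. With the replicate block the adjusted p was 0.12 for Lgals1, 0.072 for Lgals3, 0.0825 for Lgals9 and 0.0951 for Lgals3bp. The replicate 2 minus replicate 1 differences of the populations correlated at 0.214 across 10496 genes, which are not independent, and the labels do not say that a number marks a shared mouse or culture. The causes of these shifts were not tested. Depth limits the low genes, among them Lgals4 (23 to 73 estimated fragments), Lgals7 (21 to 64) and Grifin (7 to 12).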
